A study of Mus musculus with 4 samples.

Results

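Desmosomes are the junctions that fasten epithelial cells to one another and to their keratin filaments. The genes described here encode 10 of their parts: the desmosomal cadherins Dsc2, Dsc3, Dsg2 and Dsg3, the plakophilins Pkp1, Pkp2 and Pkp3, and the plakins Dsp, Ppl and Evpl. They were taken by gene symbol, and all 10 were found among the 45777 genes of the expression files. RNA sequencing was used to measure them in mouse gastric organoids, which are stomach epithelial cells grown as small three-dimensional cultures.

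The Control group carried knockouts of Cdh1 and Trp53, and the Smad4 Knockout group carried knockouts of Cdh1, Trp53 and Smad4. Cdh1 encodes E-cadherin, the main cadherin of the epithelial adherens junction. The product of Trp53 is the tumour suppressor p53, and that of Smad4 is the common SMAD protein through which TGF-beta and BMP signals reach the nucleus. Each group held 2 libraries, each from a separately named organoid line (CPE and CPG in the Control group, CPS1 and CPS4 in the Smad4 Knockout group). All 4 lines were kept in L-WRN conditioned medium with serum, and were then grown for 2 days without either, in medium with B27 and N2. The sources used here do not say how the genes were knocked out, whether a line is 1 clone, or whether lines share an animal. The p-values below therefore measure only the spread between these 4 libraries, and all of the lines carry the Cdh1 and Trp53 knockouts.

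In a desmosome, desmocollins (Dsc genes) and desmogleins (Dsg genes) bind across the gap between neighbouring cells. Inside the cell, plakoglobin and the plakophilins link the cadherin tails to desmoplakin, the product of Dsp, and desmoplakin holds the keratin filaments. Simple epithelia such as the glandular stomach mainly use Dsg2 and Dsc2, while stratified epithelia such as the mouse forestomach also use Dsg1, Dsg3, Dsc1 and Dsc3. Periplakin (Ppl) and envoplakin (Evpl) are plakins of the desmosome and of the cornified envelope, the protein shell of stratified squamous cells.

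Total counts ranged from 85649781 to 99845702 per library, and 18115 genes passed the filter on low counts. Smad4 was at 94.5 and 103.3 CPM (counts scaled to library size) in the Control libraries and at 54.4 and 52.9 CPM in the Smad4 Knockout libraries, so its transcript was lower in both but present. The pan-epithelial markers Epcam, Krt8, Krt18 and Cldn7 were high in every library, and summed to between 6649 and 7296 TPM (a unit that is also scaled to gene length and so allows genes to be compared). Of the gastric markers, Tff1 was at 55.5 to 204 TPM, Tff2 at 37.5 to 113 TPM and Gkn1 at 3.45 to 26.0 TPM. The parietal pump gene Atp4a was at 1.61 to 1.91 TPM, while the chief and parietal cell genes Pgc, Cblif and Atp4b had 0 counts in all 4 libraries. The mucin genes were low, with Muc5ac at 0.106 to 0.347 TPM and Muc6 at most at 0.0263 TPM, and Chga was at most at 0.0414 TPM. Of the 8 markers of gastric neck and gland cells, 5 stayed below 1 TPM in all 4 libraries. Fibroblast markers summed to at most 0.937 TPM, and the muscle genes Des, Myh6 and Actn2, from tissues where Dsp and Pkp2 are also abundant, to at most 0.165 TPM. Endothelial markers summed to at most 1.58 TPM, mostly Kdr, and immune markers to between 4.52 and 5.19 TPM, mostly Cd68. In such bulk RNA, fewer cells of a type and less RNA per cell cannot be told apart.

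**Figure D1:**
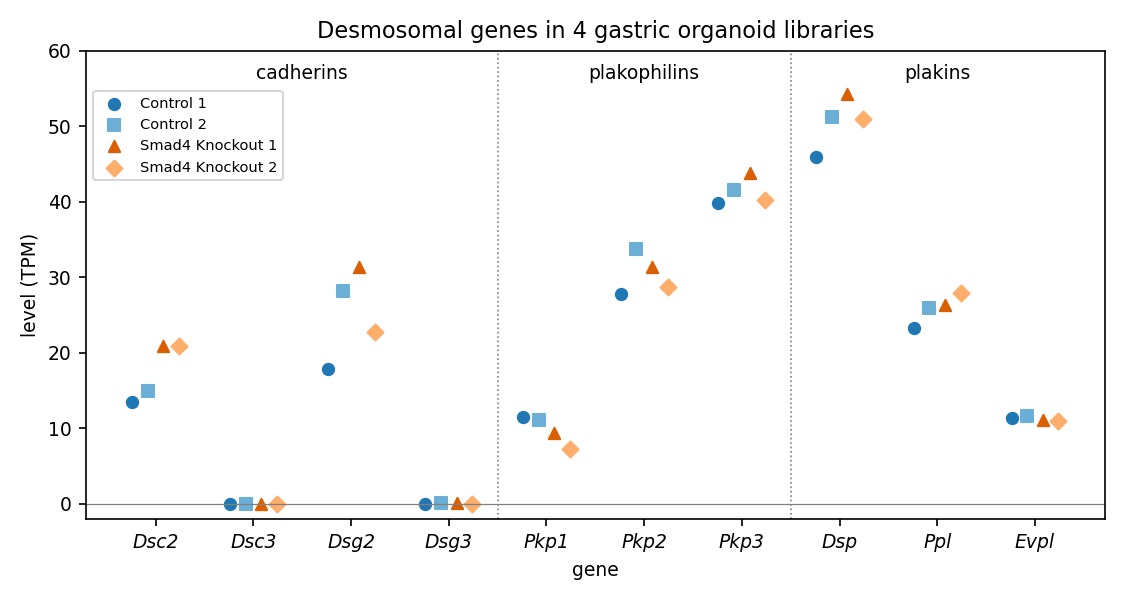
Level of each desmosomal gene in TPM (linear axis) in each of the 4 libraries, 1 point per library, with the genes arranged by class. Dsp and Pkp3 are the highest, Dsc3 and Dsg3 lie at or near 0, and Dsc2 and Pkp1 are the genes whose Control and Smad4 Knockout points separate most clearly.

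Of the 10 genes, 8 were expressed at 5 TPM or more on average. Dsp was highest in each library, at 45.9, 51.3, 54.2 and 51.0 TPM in Control 1, Control 2, Smad4 Knockout 1 and Smad4 Knockout 2, and its mean of 50.6 ± 3.45 TPM (SD, n = 4) placed it among the top 10.6% of genes with any expression. Pkp3 followed at 41.3 ± 1.78 TPM (SD, n = 4). Both stood above the next gene in the order in all 4 libraries. Pkp2 (30.4 ± 2.71 TPM), Ppl (25.9 ± 1.91 TPM) and Dsg2 (25.1 ± 5.95 TPM) each had a range over the 4 libraries that overlapped with that of the next gene (SD, n = 4 each). Within each library, though, Pkp2 was above Ppl. Dsc2 was at 17.6 ± 3.88 TPM, and its range overlapped with that of Dsg2. Within each library it was below Dsg2, with a Dsc2 to Dsg2 ratio of TPM between 0.531 and 0.915. Evpl, at 11.3 ± 0.295 TPM, and Pkp1, at 9.78 ± 1.94 TPM, closed the expressed set, and their ranges overlapped with each other (SD, n = 4 each).

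Dsc3 and Dsg3, the cadherins of stratified epithelium in this set, were at or near 0. Dsc3 had 0 counts in all 4 libraries, which allows at most 3 counts in a library, or 0.0350 CPM in the library with the fewest reads. Dsg3, the desmoglein of the basal layers of stratified epithelium, had 7, 19, 31 and 0 counts. The exact 95% Poisson intervals of the first 3 are 2.81 to 14.4, 11.4 to 29.7 and 21.1 to 44.0 counts, and the count of 0 allows at most 3 counts, or 0.0311 CPM, all for counting error only. Smad4 Knockout 1 had the highest count and Smad4 Knockout 2 had none, so the groups overlapped. Its fitted log2 fold change of 0.37 has an SE of 1.84 and turned to -0.19 without Control 1 and to -6.74 without Smad4 Knockout 1, so no direction is read from it.

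The cadherin genes lie side by side on chromosome 18, where Dsc3, Dsc2, Dsc1, Dsg1c, Dsg1a, Dsg1b, Dsg4, Dsg3 and Dsg2 follow each other over 643.6 kb (positions 19960930 to 20604526 of GRCm38, or mm10). Of these 9 genes, only Dsc2 (gene ID 13506, 20030633 to 20059554) and Dsg2 (gene ID 13511, 20558074 to 20604526) had more than 31 counts in any library. Dsg1a had 0 counts in all 4 libraries, Dsc1 had at most 10, Dsg1b at most 6, Dsg1c at most 19 and Dsg4 at most 14. The 3 Dsg1 genes are close copies, so reads between them may have been divided. The expressed pair thus stood near opposite ends of a cluster whose other members were at or near 0.

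Against that background the Smad4 comparison was made for the 9 members that passed the filter on low counts, which left out Dsc3. Dsc2 was higher and Pkp1 was lower in both Smad4 Knockout libraries than in both Control libraries, while Pkp2, Pkp3, Dsp, Ppl and Evpl differed by at most 0.11 on the log2 scale. With edgeR's quasi-likelihood test over all 18115 genes, 0 members were called at an adjusted p of 0.05, and the same test called 0.0% of all genes. That includes Smad4, with a log2 fold change of -0.88 (SE 0.10, edgeR adjusted p = 0.677, DESeq2 adjusted p = 4.92e-08). A gene that edgeR did not call can therefore not be read as unchanged. At an unadjusted p under 0.05 there was 1 member higher (Dsc2) and 1 lower (Pkp1), where 3.33% and 3.04% of all tested genes were found, or 6.36% in either direction. DESeq2 called 1 member, Dsc2, as higher, against 0.52% of genes called higher and 0.695% in either direction, and limma on TPM called 0 members. In 2 members both Smad4 Knockout libraries lay above both Control libraries (Dsc2 and Dsp), and in 2 they lay below (Pkp1 and Evpl). In TPM there were also 2 in each direction, with Ppl in place of Dsp. The same held for 18.2% and 18.6% of all tested genes, so 4 of 9 is near the background share of 36.9%. The median log2 fold change of the 9 members was 0.07, against -0.003 over all genes tested, and it turned to -0.048 without Control 1.

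**Figure D2:**
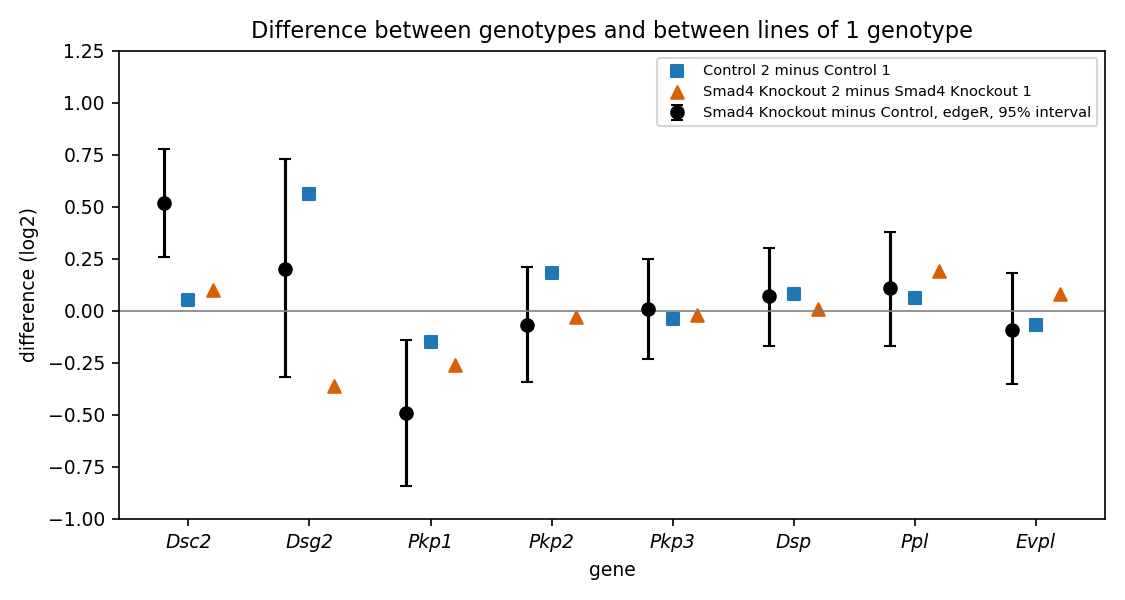
Log2 difference of the 8 expressed genes between Smad4 Knockout and Control (black, edgeR estimate with its 95% interval, n = 2 libraries a group), beside the difference between the 2 Control libraries (blue squares) and between the 2 Smad4 Knockout libraries (orange triangles). The intervals of Dsc2 (0.26 to 0.78) and Pkp1 (-0.84 to -0.14) do not reach 0 before adjustment over all genes. In Dsg2 the Control libraries differ by more than the genotypes, as they also do in Pkp2, Pkp3 and Dsp.

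Among the cadherins, Dsc2, desmocollin 2, had the largest upward difference relative to its spread. It was at 40.1 and 41.5 CPM in the Control group and at 56.4 and 60.5 CPM in the Smad4 Knockout libraries. The Smad4 Knockout libraries were both high and close to each other, and the groups did not overlap. The means were 40.8 ± 0.995 CPM and 58.4 ± 2.91 CPM (SD, n = 2 each), a 1.43-fold difference (log2 fold change 0.52, SE 0.11). That difference did not pass over all genes in edgeR (adjusted p = 0.677), while DESeq2 gave adjusted p = 0.0305. Over the 11 alternative analyses the adjusted p of Dsc2 ranged from 0.0305 to 1.0, and DESeq2 was the only alternative with a value under 0.05. The log2 fold change stayed between 0.48 and 0.57 when any library was left out. In TPM, too, both Smad4 Knockout libraries (20.9 each) were above both Control libraries (13.5 and 14.96).

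Dsg2, desmoglein 2, the partner cadherin of Dsc2 in simple epithelium, differed more between lines than between genotypes. Between the lines of a group, Pkp2, Pkp3, Dsp and Ppl also differed more than between genotypes, while Dsc2, Pkp1 and Evpl did not. Dsg2 was at 66.4 and 97.8 CPM in the Control group and at 106.1 and 82.8 CPM in the Smad4 Knockout libraries. Control 1 was the lowest and Smad4 Knockout 1 the highest, and the groups overlapped. The genotypes differed by 0.20 on the log2 scale (SE 0.21, edgeR adjusted p = 0.961), against 0.56 for Control 2 minus Control 1. That difference became -0.05 when Control 1 was left out and 0.51 when Control 2 was. A total of 2 annotated genes, Gm46630 and Gm16090, overlap Dsg2, and neither had more than 12 counts in a library.

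The balance between the expressed cadherins did not separate the genotypes. Dsc2 made up 43.0% and 34.6% of the summed cadherin TPM in the Control libraries and 39.8% and 47.8% in the Smad4 Knockout libraries, so the groups overlapped. Dsg2 held nearly all of the remainder, and Dsg3 at most 0.275%. The summed cadherin level was 31.4 and 43.2 TPM in the Control libraries and 52.4 and 43.7 TPM in the Smad4 Knockout libraries, with Control 1 lowest.

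Among the plakophilins, armadillo-repeat proteins that gather cadherins and desmoplakin into the plaque, Pkp1 was the member that was lower. Pkp1 (gene ID 18772, chromosome 1, 135871394 to 135919207), plakophilin 1, is best known from the upper layers of stratified epithelium. It was at 34.5 and 31.1 CPM in the Control group and at 25.5 and 21.2 CPM in the Smad4 Knockout libraries. Both Smad4 Knockout libraries were below both Control libraries, and Smad4 Knockout 2 was the lowest. The means were 32.8 ± 2.37 CPM and 23.4 ± 2.99 CPM (SD, n = 2 each), with a log2 fold change of -0.49 (SE 0.14, edgeR adjusted p = 0.677). DESeq2 gave adjusted p = 0.287, the lowest of the 11 alternatives, which reached 1.0. Leaving out Smad4 Knockout 2 gave -0.35, and leaving out Smad4 Knockout 1 gave -0.63.

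Pkp3 and Pkp2 were nearly level across the 4 libraries. Pkp3 (gene ID 56460, chromosome 7, 141078229 to 141090511), plakophilin 3, found in most epithelia, was at 72.6 and 70.9 CPM in the Control group and at 72.8 and 71.8 CPM in the Smad4 Knockout libraries. The groups overlapped, and the highest and lowest library differed by 0.04 on the log2 scale, less than for any other member. The log2 difference between the genotypes was 0.01 (95% interval -0.23 to 0.25, edgeR adjusted p = 0.995), and its sign changed without Control 2 (-0.008). Pkp2 (gene ID 67451, chromosome 16, 16213345 to 16272712), plakophilin 2, the form of simple epithelia and heart muscle, was at 51.6 and 58.6 CPM against 53.2 and 52.1 CPM. The Smad4 Knockout libraries lay between the Control libraries. On the log2 scale they differed by -0.07 (95% interval -0.34 to 0.21, edgeR adjusted p = 0.988), and 0.03 without Control 2.

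Within the class, the share of Pkp1 was therefore lower in the Smad4 Knockout libraries. Pkp1 made up 14.5% and 12.8% of the summed plakophilin TPM in the Control libraries, and 11.0% and 9.5% in the Smad4 Knockout libraries. The groups did not overlap, but with 2 libraries against 2 an exact two-sided permutation test cannot give a p below 0.333. Pkp3 held between 48.1% and 52.8% and Pkp2 between 35.1% and 39.1%, and in both the groups overlapped. The summed plakophilin level was 79.1 and 86.4 TPM in the Control libraries and 84.5 and 76.1 TPM in the Smad4 Knockout libraries.

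**Figure D3:**
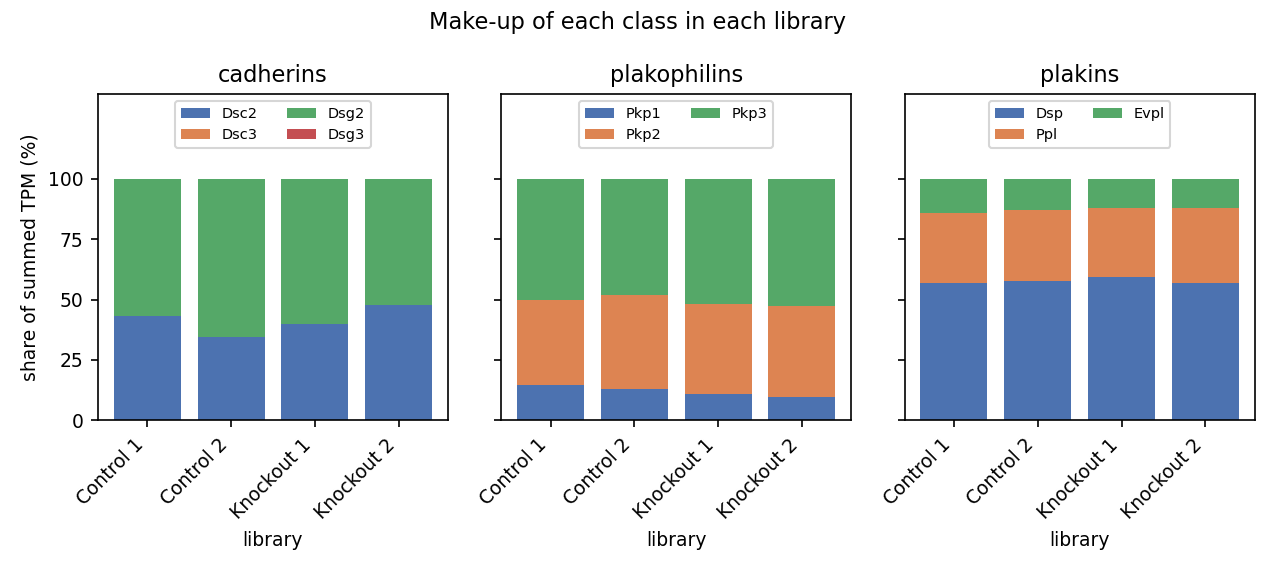
Share of the summed TPM of each class (percent, stacked bars) taken by each gene in each library, where Knockout 1 and 2 are the Smad4 Knockout libraries. The share of Pkp1 is 14.5% and 12.8% in the Control libraries and 11.0% and 9.5% in the others, and the share of Dsc2 overlaps between the groups. The plakin shares stay within narrow ranges, though that of Evpl also does not overlap (14.1% and 13.0% in the Control libraries, 12.1% and 12.2% in the others).

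Dsp, which encodes desmoplakin, the obligate link of the desmosome to keratin, had the highest level of the set. Dsp held that level within a log2 range of 0.11 (in CPM) over the 4 libraries. Its promoter is shown because Dsp was the 1 member of 10 matched in the RefSeq promoter table. The 250 bases before its start (chr13:38151044-38151293, plus strand, GRCm38.p6) read as follows, with capitals marking matches to GGGCGG, the GC box, and to GGCGC, a GC-rich motif that SMAD proteins can bind, on either strand.
Dsp: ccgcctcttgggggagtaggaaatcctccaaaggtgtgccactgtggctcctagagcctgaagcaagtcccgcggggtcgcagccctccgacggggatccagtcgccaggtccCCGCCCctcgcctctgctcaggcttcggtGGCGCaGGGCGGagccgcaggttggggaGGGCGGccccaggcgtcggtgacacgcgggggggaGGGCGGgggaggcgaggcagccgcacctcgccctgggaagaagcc
The window holds 4 GC boxes, a motif found in 32.7% of the 32851 promoters of the table, and 1 match to GGCGC, found in 32.0%. These motifs do not overlap one another here, and both were added to the search after the sequence was seen. Its GC content is 72.4%, against a median of 52.4% over all promoters. No match was found to CAGAC (a SMAD box, in 42.2% of promoters), CAGGTG (an E-box, 17.2%), TGANTCA (an AP-1 site, 6.75%) or ACCGGT (a Grainyhead core, 1.86%), which says only that these letters are not in this window.

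In the libraries Dsp (gene ID 109620, chromosome 13, 38151294 to 38198577) measured 269 and 284 CPM in the Control group and 288 and 290.4 CPM in the Smad4 Knockout group. Both Smad4 Knockout libraries were above both Control libraries, but only in CPM, since the TPM values given above overlapped. The genotypes differed by 0.07 on the log2 scale (SE 0.09, 95% interval -0.17 to 0.30, edgeR adjusted p = 0.978). Counting error is small here, since an exact 95% Poisson interval on its 24930 to 28146 counts spans at most 1.24% to either side.

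The other plakins differed as little. Ppl (gene ID 19041, chromosome 16, 5086291 to 5132481) measured 94.1 and 98.1 CPM in the Control libraries and 96.6 and 110.4 CPM in the Smad4 Knockout libraries, where Smad4 Knockout 2 was highest and the groups overlapped. Its log2 fold change was 0.11 (95% interval -0.17 to 0.38, edgeR adjusted p = 0.959), and 0.02 without Smad4 Knockout 2. Evpl (gene ID 14027, chromosome 11, 116220559 to 116238165) measured 46.8 and 44.6 CPM against 41.8 and 44.2 CPM, with both Smad4 Knockout libraries lower by a small margin. The log2 difference was -0.09 (95% interval -0.35 to 0.18, edgeR adjusted p = 0.97). Periplakin and envoplakin can pair with each other, and Ppl was the higher of them in each library. The Ppl to Evpl ratio of TPM was 2.05 and 2.24 in the Control libraries and 2.37 and 2.56 in the Smad4 Knockout libraries. In that ratio the groups did not overlap, again with 2 libraries against 2. Ppl and Evpl each have 1 overlapping annotated gene (Gm52254, with at most 7 counts, and Gm33250, with at most 34).

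The 8 expressed members also differed in how far they spread over the libraries. The log2 range of CPM from lowest to highest library was 0.04 for Pkp3, 0.11 for Dsp, 0.16 for Evpl, 0.18 for Pkp2 and 0.23 for Ppl, and 0.59, 0.68 and 0.70 for Dsc2, Dsg2 and Pkp1. The median over 10037 tested genes with a mean of at least 5 TPM was 0.29, and 5 of the 8 members were below it. By the root mean square log2 distance over these 8 genes, the Smad4 Knockout libraries were 0.177 apart and the Control libraries 0.219 apart. Control 2 was 0.200 from Smad4 Knockout 1, closer than it was to Control 1, so the libraries did not separate by genotype on these genes. The same held over the 10037 genes, where Control 2 was 0.23 from Smad4 Knockout 1 and 0.27 from Control 1. It is therefore not particular to the desmosomal members.

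The other genes of the junction were then examined, from lists chosen with earlier results of these data known. Of the other desmosome genes, Jup, Perp, Pkp4 and Cdsn were tested and 0 of these 4 were called by edgeR or DESeq2, with 0 at an unadjusted p under 0.05. Jup, which encodes plakoglobin, the armadillo protein shared by desmosomes and adherens junctions, was at 204 and 241 CPM in the Control group and at 196 CPM in each Smad4 Knockout library. In CPM both Smad4 Knockout libraries were lower than both Control libraries (log2 fold change -0.18, SE 0.12, edgeR adjusted p = 0.875), and the log2 fold change was -0.06 without Control 2. In TPM the groups of Jup overlapped (86.7 and 107.2 against 92.0 and 85.6 TPM). Perp, a membrane protein of desmosomes and a known target of p53 and p63, was at 212 and 205 CPM in the Control group and 199 and 195 CPM in the other (a log2 difference of -0.09, SE 0.09). Its mean of 173.5 TPM over the 4 libraries was above that of each of the 10 desmosomal genes, and both groups carry the Trp53 knockout. Pkp4, a plakophilin relative found mainly at adherens junctions, was at 198 and 192 CPM in the Control group and 209 and 219.8 CPM in the other (a log2 difference of 0.13, SE 0.10).

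Among the other plakins, giant linkers of the cytoskeleton, 0 of 4 were called by edgeR or DESeq2, with 0 at an unadjusted p under 0.05, and the median log2 fold change was -0.12, or 0.091 without Smad4 Knockout 2 and 0.083 without Control 2. Plec, which encodes plectin, was at 571 and 689 CPM in the Control group and at 555 and 433 CPM in the Smad4 Knockout libraries (log2 fold change -0.35, SE 0.16). Smad4 Knockout 2 was the lowest by a clear margin, and the log2 fold change was -0.17 without it. Dst, dystonin, was at 164 and 210.0 CPM against 191 and 139 CPM, so its groups overlapped, and its log2 fold change of -0.18 turned to 0.05 without Smad4 Knockout 2 and to 0.01 without Control 2. Of the hemidesmosome genes, which fasten cells to the basement membrane, 0 of 6 tested were called by edgeR or DESeq2 with 0 at an unadjusted p under 0.05, and their median was -0.25. Lama3, a laminin chain that hemidesmosomes bind, was at 138 and 130.1 CPM against 111 and 50.7 CPM. Smad4 Knockout 2 was far lower than the others, and the log2 difference of -0.73 (SE 0.34) shrank to -0.26 when that library was left out. When Smad4 Knockout 1 was left out it was -1.41 and edgeR called it (adjusted p = 0.029, the lowest of 11 alternatives that reached 1.0), as it did 0.479% of genes. That fit holds 1 Smad4 Knockout library, which is assumed to vary like the Control pair, the only source of its spread. Of the adherens junction partners 0 of 9 were called by edgeR or DESeq2, with 0 at an unadjusted p under 0.05 and a median of -0.13. Nectin3, an adhesion receptor, differed by -0.43 on the log2 scale (SE 0.19), by -0.20 without Smad4 Knockout 2 and by -0.69 without Smad4 Knockout 1. Cdh3, which encodes P-cadherin, differed by -0.54 (SE 0.38), or by -0.03 when Smad4 Knockout 2 was left out.

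**Figure D4:**
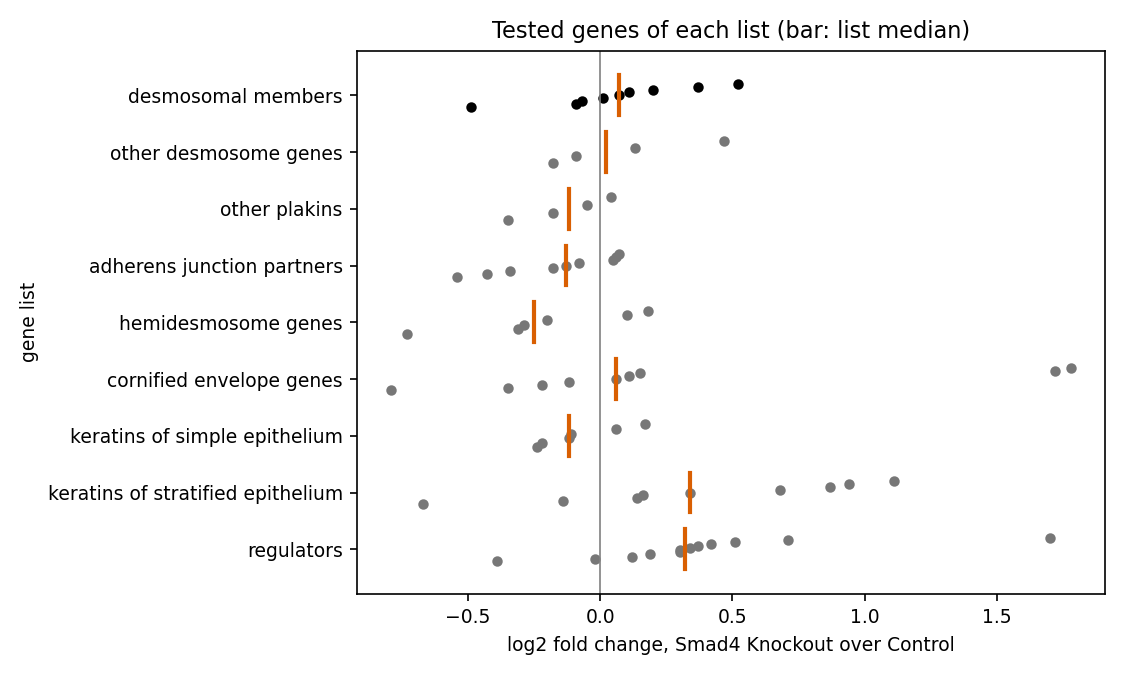
Log2 fold change (Smad4 Knockout over Control, edgeR) of each tested gene of the desmosomal set and of 8 companion lists, 1 point per gene, with an orange bar at each list median. The desmosomal members lie around a median of 0.07, the regulators around 0.32 and the stratified keratins around 0.34, a median that becomes 0.019 without Smad4 Knockout 2.

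Desmosomes attach to keratins, and the most abundant transcripts of the listed keratins were of the simple kind. The stratified keratin Krt4 was also expressed, at a mean of 124 TPM. Which keratins the desmosomes attached to was not measured. Krt8 and Krt18, the keratin pair of simple epithelium, had means of 3126 and 2828 TPM, and 0 of 6 simple keratins were called by edgeR or DESeq2, with 0 at an unadjusted p under 0.05. Krt19 and Krt7, the other abundant members, had log2 fold changes of 0.17 (SE 0.12) and -0.12 (SE 0.10). With 1 library left out these ran from 0.044 (without Smad4 Knockout 2) to 0.288 (without Smad4 Knockout 1) for Krt19, and from -0.208 (without Control 2) to -0.033 (without Control 1) for Krt7. Of the stratified keratins, 9 of 11 were tested, with 0 called by edgeR, 1 at an unadjusted p under 0.05 and 1 called by DESeq2, in each case Krt4. Over all genes, 6.36% had an unadjusted p under 0.05 in edgeR and 0.695% were called by DESeq2, in either direction. Krt4, a keratin of the squamous lining of forestomach and oesophagus, was at 116 and 89.9 CPM in the Control group and at 192 and 251 CPM in the Smad4 Knockout libraries. The groups did not overlap, and Smad4 Knockout 2 was highest (log2 fold change 1.11, SE 0.18, edgeR adjusted p = 0.677). DESeq2 gave Krt4 an adjusted p of 1.16e-06, the lowest of its 11 alternatives, which reached 1.0. Krt16, by contrast, was at 2.49 and 2.64 CPM in the Control group and 1.75 and 1.48 CPM in the other (a log2 difference of -0.67, SE 0.28), and reads of Krt16 may be shared with its close relatives.

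The squamous markers were therefore set beside the desmosomal values. Their summed level was 120.5 and 110.2 TPM in the Control libraries and 190.3 and 230.3 TPM in the Smad4 Knockout libraries, and Krt4 alone accounted for 84.7 and 70.1 TPM and for 154 and 187 TPM of these sums. The other 9 markers together were at 35.8 and 40.2 TPM against 36.4 and 43.0 TPM, so their groups overlapped. That overlap rested on Sox2, a transcription factor of both forestomach and glandular stomach, at 19.8 and 24.4 TPM against 19.2 and 19.9 TPM. Sox2 was then set aside as well, after its values were seen. The other 8 markers summed to 15.9 and 15.8 TPM in the Control libraries. In the Smad4 Knockout libraries they summed to 17.3 and 23.1 TPM, so these sums did not overlap. Within those 8, Ivl (7.03 and 5.87 against 6.90 and 7.28 TPM), Krt13, Krt14 and Krt15 overlapped between the groups. Krt6a (3.95 and 2.93 against 4.71 and 6.57 TPM), Krt5 and Trp63 were higher in both Smad4 Knockout libraries. Of the 10 markers, 3 stayed below 1 TPM in all 4 libraries. Trp63, which encodes p63, the regulator that defines squamous basal cells, was at 0.0296, 0, 0.0565 and 0.0440 TPM, and Krtdap had 0 counts in all 4 libraries. Krt5 was at most at 0.874 TPM and Krt14 at most at 1.07 TPM. The summed squamous level, mostly Krt4, was thus higher in the group where Dsc2 was higher and Pkp1 lower, with Dsc3 at 0, Dsg3 near 0 and Trp63 near 0 throughout. The part of squamous cells in the Dsc2 and Pkp1 values was not tested. The summed gastric surface mucous markers, mostly Tff1, also differed, at 84.6 and 60.3 TPM against 122 and 233 TPM. So did the summed neck and gland markers, mostly Tff2, at 50.96 and 40.4 TPM against 115.5 and 67.1 TPM. Within that list Atp4a (1.74 and 1.91 against 1.76 and 1.61 TPM), Lgr5 and Chga overlapped between the groups. Muc6 was near 0 and lower in the Smad4 Knockout libraries. Within the surface markers, Tff1 and Gkn1 did not overlap between the groups. Muc5ac (0.228 and 0.106 against 0.181 and 0.347 TPM) and Gkn2 (0.275 and 1.23 against 0.885 and 2.45 TPM) did. In neither sum did the groups overlap, and the part of these markers in the Dsc2 and Pkp1 values was not tested either.

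Among the cornified envelope genes, the programme in which Ppl and Evpl also take part, 9 of the 14 found in the files were tested. edgeR and DESeq2 called 0 of them, and at an unadjusted p under 0.05 there were 1 higher and 2 lower, against 3.33% and 3.04% of all genes. Sprr1a, a small proline-rich envelope precursor, was at 82.9 and 80.9 CPM in the Control group and at 62.7 and 66.2 CPM in the Smad4 Knockout libraries (log2 fold change -0.35, SE 0.10). Lor, which encodes loricrin, was at 2.84 and 2.78 CPM in the Control group and 1.71 and 1.55 CPM in the other (a log2 difference of -0.79, SE 0.26). In both, the Smad4 Knockout libraries lay below the Control libraries. The 1 gene higher was Csta1, a cystatin at 0.572 and 0.874 CPM against 0.926 and 3.82 CPM, named after its values were seen, with close copies in the genome and a log2 fold change of 0.37 without Smad4 Knockout 2. Sprr1a and Lor, named for the smallest p of the list, shared the direction of Pkp1, but the list as a whole did not. Of its 9 tested genes 5 were above 0, with a median log2 fold change of 0.06. Ppl, Evpl and the envelope crosslinking enzyme Tgm1 (log2 fold change 0.15, SE 0.15, named after its values were seen) had small differences.

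Of the 12 regulators of stratified and junctional programmes, all tested, edgeR and DESeq2 called 0, and 3 were higher and 0 lower at an unadjusted p under 0.05, against 3.33% and 3.04% of all genes. Elf3, an ETS factor of differentiated epithelium, was at 72.7 and 74.1 CPM in the Control group and at 88.8 and 119.9 CPM in the Smad4 Knockout libraries (a log2 difference of 0.51, SE 0.16, or 0.29 when Smad4 Knockout 2 was left out). Ehf, another ETS factor among the 3, was named after its values were seen (log2 fold change 0.30, SE 0.11). In Elf3 and Ehf both Smad4 Knockout libraries lay above both Control libraries and Smad4 Knockout 2 was the highest. The list had a median log2 fold change of 0.32, which counts Trp63 and Zfp750, with at most 16 and 38 counts in a library. Dsc2 had a log2 fold change of 0.52, and the part of these regulators in it was not tested. Grhl2, which is known to maintain epithelial junction genes, was named after its values were seen. Its levels were 82.4 and 87.9 CPM against 93.4 and 74.1 CPM, with overlapping groups.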

How the data were processed

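The 4 libraries were made from total RNA with a stranded kit that removes ribosomal RNA, per the labels' protocols, and were grouped by the genotype label. Replicate numbers follow accession order and pair nothing. The columns of Control 2 carry its title with an added 2. Per the submitters' processing notes, the mm10 build was used with HISAT2 2.1.0, StringTie 2.1.3b, Trimmomatic and bcl2fastq 2.20.0, without a statement of the counting step or its strand setting. The deposited read counts are whole numbers, per the file headers, and were treated as estimated counts. The deposited TPM were used for levels and for limma, and 5 FPKM columns were not used.

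The test was edgeR's quasi-likelihood F-test (version 4.0.16, R 4.3.3) with genotype as the term, TMM scaling, filterByExpr at a minimum count of 10 and Benjamini-Hochberg adjustment over 18115 genes. The standard error is the log2 fold change divided by the root of F. CPM use TMM-scaled library sizes. The common dispersion was 0.068. Alternatives were RLE, no filter, robust moderation, DESeq2 1.42.0, limma 3.58.1 with trend on log2(TPM + 1) or log2(TPM + 0.1) with a minimum of 1 TPM in 2 libraries, the former also without that minimum, and leaving out each library. The edgeR, DESeq2 and interval code was tested on simulated data. The members and the lists were chosen with earlier results of these data known. The rule names all members and, from each list, the 2 genes with the smallest p plus Jup, Perp, Plec, Dst and Trp63, and other genes were named after their values were seen. The list totals include genes that are not reported here by name. Coordinates come from the RefSeq table of GRCm38.p6, which held 45679 of the gene IDs.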

Additional observations from a re-analysis of the deposited data

How the results depend on the processing

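No paired analysis was possible because the labels give the groups no shared replicate numbers. Dsc2 stayed above 0 and Pkp1, Evpl below 0 in all 11 alternatives, as did Dsp and Ppl above 0. Only DESeq2 called a member, 1 higher, and it called 98 genes higher and 33 lower over all genes, against 0 in edgeR. With 1 library left out, edgeR called 0 to 48 genes higher, 0 to 44 lower and 0 members. The members whose groups do not overlap then numbered 3 to 5 higher and 2 to 3 lower of 9, beside 30.0% to 36.1% and 30.6% to 35.8% of all tested genes, since fewer libraries have to be separated. The median log2 fold change of the members ranged from -0.048 (without Control 1) to 0.103. A group with 1 library left is assumed to vary like the other group. With 1 library left out the log2 fold change took both signs for Dsg2 (-0.048 to 0.507, below 0 without Control 1), Pkp2 (-0.153 to 0.028) and Pkp3 (-0.008 to 0.033), which turned without Control 2, Dsg3 (-6.74 to 1.378, below 0 without Control 1, at -0.193, and without Smad4 Knockout 1) and Dst (-0.428 to 0.045, above 0 without Control 2, at 0.009, and without Smad4 Knockout 2). The value of Dsg3 rests on 0 counts in Smad4 Knockout 2 and depends on the prior count. Leaving out 1 library moved the list medians over -0.358 to 0.091 (other plakins, above 0 without Control 2 and without Smad4 Knockout 2), -0.202 to -0.056 (adherens junction partners), 0.025 to 0.048 (other desmosome genes), -0.281 to -0.128 (hemidesmosome), -0.012 to 0.058 (cornified envelope, below 0 without Smad4 Knockout 2), -0.21 to 0.034 (simple keratins, above 0 without Control 1), 0.019 to 0.676 (stratified keratins, lowest without Smad4 Knockout 2) and 0.24 to 0.45 (regulators). On TPM the median of the other desmosome genes was -0.05 with either pseudocount under the filter and 0.037 without it, against 0.024 in edgeR, and that of the cornified envelope genes was 0.123 without a filter. The causes of these shifts were not tested. The median over all genes moved by less than 0.1 (log2) in each alternative. With at most 31 counts in a library, Dsc3 and Dsg3 are too low at this depth for a direction to be read.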
